A study of Mus musculus with 12 samples.

Results

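Genes of the translation initiation factors, eIF1 to eIF6, were followed across mouse oocytes that lacked mitofusin 1, mitofusin 2 or both. Of 54 gene symbols in the deposited count table that begin with Eif and a digit from 1 to 6, the 4 eIF2 kinase genes (Eif2ak) and the 4 Argonaute genes under their older Eif2c names were left out, which left 46 of 11385 genes. None was chosen by its measured level, but members, their roles and the pathway lists were chosen with earlier results of these data known. The deposited table lists genes above 1 CPM, counts scaled to library size, in at least 3 libraries, so Eif4ebp1, Eif5a2, Eif3j and other absent factor genes were not analysed here.

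Total RNA came from pools of 50 germinal-vesicle oocytes, the stage arrested in prophase of meiosis, stripped of cumulus cells and taken from C57BL/6J mice of 21 to 23 days that had received no hormone. The 4 groups were WT (both mitofusin genes intact), Mfn1-/- (no mitofusin 1), Mfn2-/- (no mitofusin 2) and Mfn1&2-/- (neither), with 3 pools each. Mitofusins are membrane GTPases that fuse mitochondria with each other. How and in which cells the alleles were deleted is not in the labels, nor is whether pools came from different animals, so a p-value measures the spread between pools, which may be partly technical.

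Initiation begins when eIF2, loaded with GTP and the initiator tRNA, joins the small ribosomal subunit together with eIF1, eIF1A, eIF3 and eIF5. The complex eIF4F, made of the cap-binding protein eIF4E, the scaffold eIF4G and the helicase eIF4A, brings the mRNA, and eIF5B then joins the large subunit at the start codon. A fully grown oocyte transcribes little and relies on stored mRNAs, many of them held silent by proteins that occupy eIF4E or replace it at the cap, among them the oocyte paralogue eIF4E1B.

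Libraries held 11575357 to 16024893 counts, and 3 counts, used as the floor, corresponded to 0.188 to 0.253 CPM. Mfn1 stood at 279.7 ± 16.4 CPM in WT, 18.1 ± 0.696 in Mfn1-/-, 230.2 ± 14.2 in Mfn2-/- and 20.1 ± 5.87 in Mfn1&2-/- (mean ± SD, n = 3, as for all CPM values here), and Mfn2 at 76.3 ± 9.75, 66.5 ± 3.74, 11.2 ± 2.19 and 10.8 ± 1.31 CPM in the same order. All 16 of 16 oocyte markers had counts in every library, and their summed level was 20167 to 22994 CPM in Mfn2-/-, above the other groups (15741 CPM in WT replicate 3 to 19833 CPM in Mfn1&2-/- replicate 2). Single markers differed. In Mfn2-/- all libraries lay above WT for Gdf9, Bmp15, Zp1, Oosp1, Lhx8, H1foo, Mos and Padi6. They lay below WT for Ddx4 and overlapped WT for Zp2, Zp3, Figla, Nobox, Nlrp5, Dazl and Zar1. Of 18 granulosa-cell markers 11 were in the table, and WT replicate 3 had the highest value of 7 of them and a summed level of 527 CPM, against 149 to 225 CPM in the other libraries. Of the 11 markers Fshr and Fst had no count in some libraries. The part of either marker list in the results was not tested. The level of a gene in a pool cannot separate fewer transcripts per oocyte from fewer oocytes with the transcript.

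The summed level of the 46 genes lay between 7883 and 8625 CPM in every library. It was 8402, 8456 and 8625 CPM in WT, 7886, 8497 and 8223 CPM in Mfn1-/-, 8062, 7883 and 7900 CPM in Mfn2-/-, and 8596, 8617 and 8564 CPM in Mfn1&2-/-. The 3 Mfn2-/- libraries lay below the WT and Mfn1&2-/- libraries and overlapped the Mfn1-/- libraries.

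To compare genes with each other, CPM was divided by the length of all annotated exons of the gene, merged over its transcripts. For some genes this length far exceeds that of the longest coding transcript, as for Eif4a1 (4334 and 1774 bases) and Eif4enif1 (6370 and 3712 bases). For Eif4e3 both lengths are 2515 bases. The order of genes on this scale thus depends in part on the annotation, and no other length was used. On this scale Eif4e1b had the highest mean of the 46 genes in WT, 322 ± 6.44 CPM per kb, followed by Eif4e3 at 226 ± 22.7, a cap-binding relative of eIF4E, and Eif4enif1 at 168 ± 1.21, which encodes the eIF4E transporter 4E-T, a partner of eIF4E in repressed mRNPs. Eif1b, a paralogue of the start-codon factor eIF1, stood at 136 ± 4.96 and the helicase gene Eif4a1 at 114 ± 4.58 CPM per kb. The replicate ranges of these 5 genes did not overlap in WT. Eif4e itself was 14th, at 50.0 ± 6.85 CPM per kb, and Eif4e2, a weak cap binder that represses translation, stood at 4.67 ± 1.10. The 12 eIF3 subunits, which sit in 1 complex, ran from 5.67 ± 2.08 for Eif3f to 96.0 ± 5.32 CPM per kb for Eif3c. This range also depends on the length used. The merged exons of Eif3e, Eif3i and Eif3k hold 6719, 3702 and 2698 bases, their longest coding transcripts 1506, 1123 and 909. For Eif3c the lengths are 3511 and 3383 bases. The lowest were Eif4ebp3 at 1.62 ± 1.46 and Eif4ebp2 at 1.15 ± 0.216, both inhibitors that compete with eIF4G for eIF4E, and Eif1a at 0.784 ± 0.405 CPM per kb; these 3 did not differ beyond their spread.

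**Figure D1:**
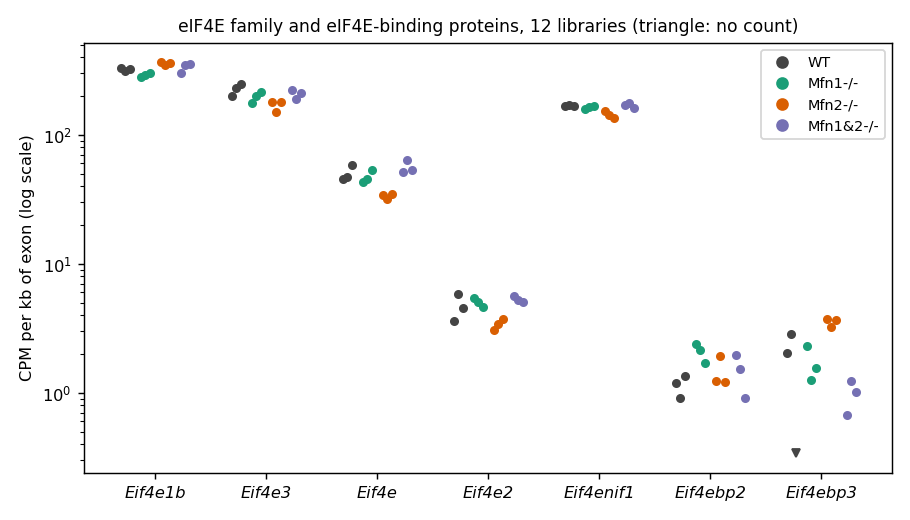
Level per kb of exon (CPM per kb, log scale) of the eIF4E family and its binding proteins in each of the 12 libraries, coloured by group; a triangle marks a library without a count. Eif4e1b lies at the top in all groups (322 CPM per kb in WT), and the Mfn2-/- points of Eif4e lie below those of the other groups.

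In oocytes without mitofusin 2 alone, Eif3g, Eif4g3 and Eif4e fell and Eif1ax rose, with 7 further calls of smaller stability. By edgeR's quasi-likelihood test with Benjamini-Hochberg adjustment over all 11385 genes (a call is an adjusted p under 0.05), 11 of 46 changed between Mfn2-/- and WT, 3 higher and 8 lower. Of all genes 11.4% were called, 4.52% higher and 6.87% lower. The members' share was 23.9%, with a median log2 fold change of 0.00 beside 0.01 for all genes. Groups did not overlap for 10 genes that stood higher and 16 that stood lower, where 32% of all genes did not overlap (16.1% higher, 15.9% lower). With library size alone as the scaling, 5 were higher and 7 lower (12.1% of all genes called). The oocyte markers' summed level, given above, also stood apart in Mfn2-/-, although not all single markers did.

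Between Mfn1-/- and WT edgeR called 0 of 46, where 0.228% of all genes were called. At an unadjusted p under 0.05 there were 3 (12.8% of all genes), and both DESeq2 and limma-voom called 0 (1.97% and 0.167% of all genes). Between Mfn1&2-/- and WT edgeR also called 0 of 46, where 4.21% of all genes were called, with 8 at an unadjusted p under 0.05 (18.6% of all genes), 1 by DESeq2 (7.33%) and 0 by limma-voom (3.58%). Member medians were -0.07 and 0.04, beside -0.01 and 0.00 for all genes.

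Set against each other, Mfn1&2-/- and Mfn2-/- differed in 11 members, 9 higher and 2 lower in Mfn1&2-/-, where 10.2% of all genes were called, 6.14% higher and 4.08% lower (member median 0.09, all genes -0.01); with library size alone as the scaling the split was 6 and 4 (10.5% of all genes called). Mfn2-/- and Mfn1-/- differed in 15, 8 higher and 7 lower in Mfn2-/-, where 13.3% of all genes were called, 6.46% higher and 6.84% lower (medians -0.03 and 0.00). Mfn1&2-/- and Mfn1-/- differed in 0 by edgeR, where 5.36% of all genes were called, with 11 at an unadjusted p under 0.05 (20.7% of all genes), 2 by DESeq2 (9.18%) and 0 by limma-voom (5.78%). These comparisons share libraries with each other and with those against WT, so their values are given side by side and not as separate support. In all, 24 of the 46 genes were called in at least 1 of 7 comparisons and 22 in none. The share of all genes called in at least 1 of the 7 is not given here. The count of 24 is therefore not shown to be particular to initiation factors.

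**Figure D2:**
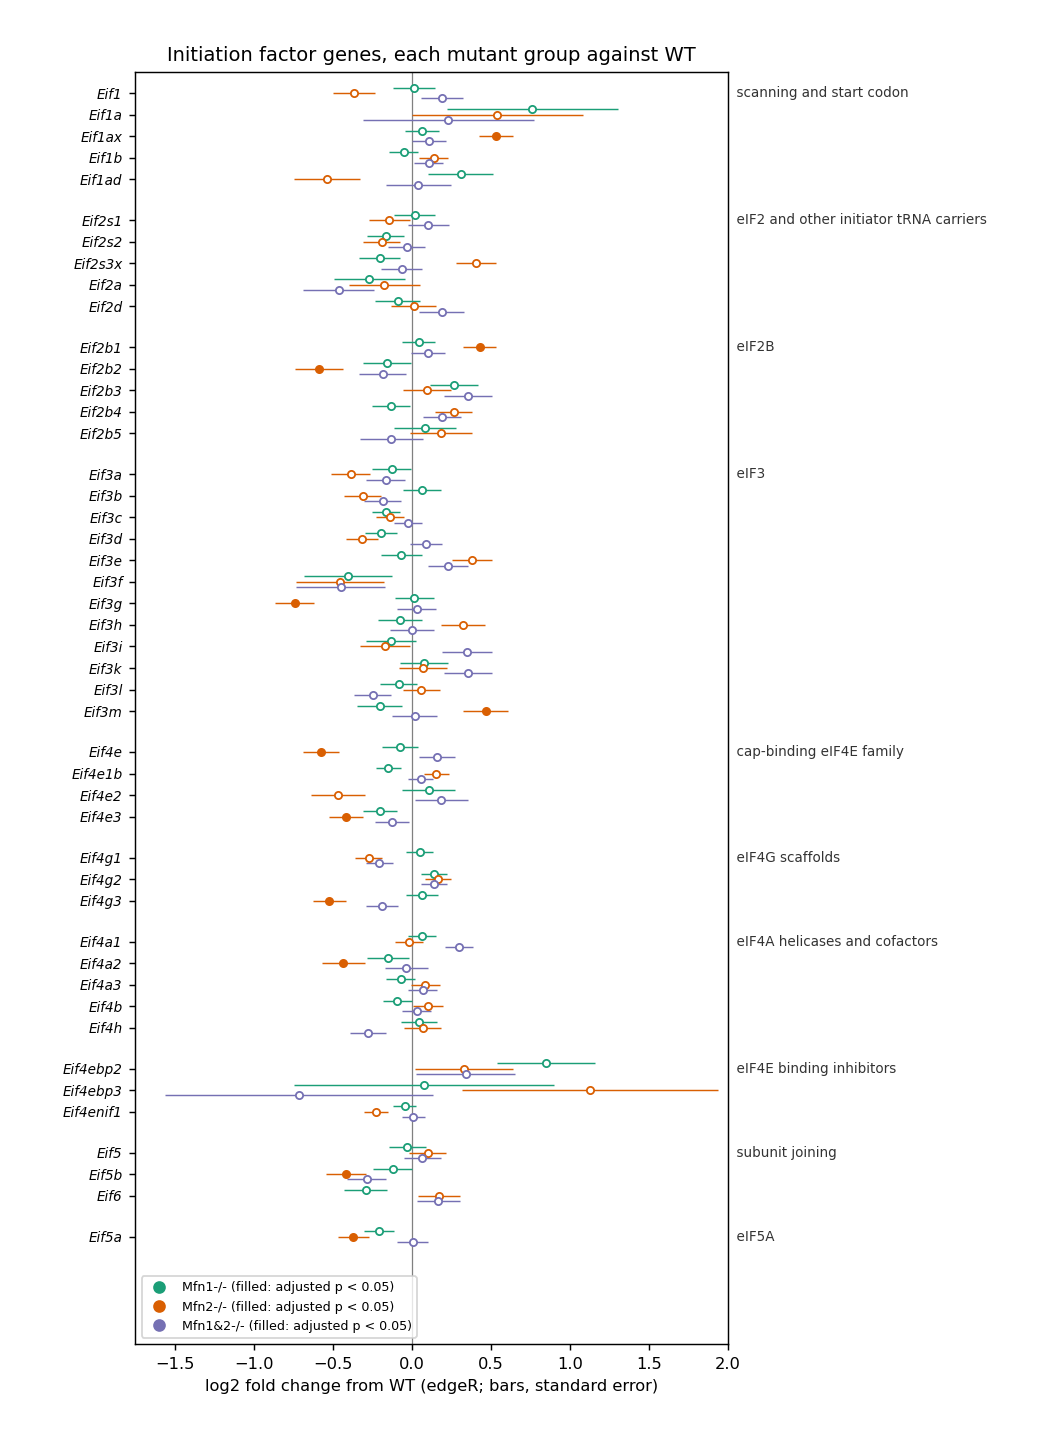
Log2 fold change from WT of all 46 initiation factor genes in Mfn1-/-, Mfn2-/- and Mfn1&2-/- (edgeR; bars are 1 standard error; filled points have an adjusted p under 0.05), grouped by role. The 11 filled points all belong to Mfn2-/-, 3 to the right of 0 and 8 to the left.

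Among the cap-binding proteins, Eif4e, whose product holds the mRNA cap within eIF4F, fell with loss of mitofusin 2 alone. It stood at 271, 283 and 347 CPM in WT (300.5 ± 41.1) and 261, 272 and 322 CPM in Mfn1-/- (285 ± 32.7). With loss of mitofusin 2 it stood at 206, 192 and 208 CPM in Mfn2-/- (202 ± 8.84), and with loss of both at 308, 379.7 and 319 CPM in Mfn1&2-/- (336 ± 38.7). Every Mfn2-/- library lay below every library of the other groups, while WT, Mfn1-/- and Mfn1&2-/- overlapped. Eif4e in Mfn2-/- was 67.2% of WT (log2 fold change -0.57 ± 0.12, here and below ± standard error; edgeR adjusted p = 0.00528). It was higher in Mfn1&2-/- than in Mfn2-/- by 0.73 ± 0.12 (adjusted p = 0.00133). Between Mfn1&2-/- and WT the difference was 0.16 ± 0.11, with a 95% interval of -0.08 to 0.40. The calls against WT and against Mfn1&2-/- were kept without any of the 12 libraries; that against Mfn1-/-, -0.50 ± 0.12 (adjusted p = 0.0103), was lost without Mfn1-/- replicate 3 (adjusted p up to 0.0525). The gene lies on chromosome 3, 138526179 to 138559696 on the plus strand (GRCm38, GENCODE vM21, as for all gene positions here).

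Eif4e1b, the oocyte paralogue (chromosome 13, 54783998 to 54788459, plus strand), ran from 637 to 823 CPM and was called only between Mfn2-/- and Mfn1-/-. It stood at 737, 710.1 and 733 CPM in WT (727 ± 14.5) and 637, 656 and 674 CPM in Mfn1-/- (656 ± 18.6). In the other groups it stood at 823, 787 and 814 CPM in Mfn2-/- (808 ± 18.9) and 683, 779 and 803 CPM in Mfn1&2-/- (755 ± 63.5). The Mfn1-/- libraries were the lowest and did not overlap the others, and the Mfn2-/- libraries lay above WT and Mfn1-/- but overlapped Mfn1&2-/-. The difference from WT was 0.15 ± 0.08 in Mfn2-/- (edgeR adjusted p = 0.233; 95% interval -0.01 to 0.32) and -0.15 ± 0.08 in Mfn1-/- (adjusted p = 0.453), so neither was called. Mfn2-/- against Mfn1-/- passed, at 0.30 ± 0.08 (adjusted p = 0.0194), and lost the call without Mfn1-/- replicates 1 or 2 or Mfn2-/- replicates 1 or 3 (adjusted p up to 0.0972). Eif4e1b and Eif4e thus stood on opposite sides of WT in the Mfn2-/- libraries, although only Eif4e passed the test; the difference between these 2 differences was not tested.

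Eif4e3 fell and Eif4e2 was called only against the other mutants. Eif4e3 stood at 507, 581 and 619 CPM in WT (569 ± 57.0) and 441, 507 and 538 CPM in Mfn1-/- (495 ± 49.7). Its Mfn2-/- and double-mutant levels were 452, 375 and 455 CPM in Mfn2-/- (427 ± 45.4) and 556, 479 and 528 CPM in Mfn1&2-/- (521 ± 39.0). WT and Mfn1&2-/- libraries all lay above Mfn2-/-, which overlapped Mfn1-/-, and the change from WT, -0.41 ± 0.11 (adjusted p = 0.0224), was lost without WT replicates 2 or 3 or Mfn2-/- replicate 2 (adjusted p up to 0.101). Eif4e2 stood at 27.2, 43.7 and 34.2 CPM in WT (35.0 ± 8.26) and 40.4, 37.8 and 34.8 CPM in Mfn1-/- (37.7 ± 2.79). It stood at 22.9, 25.4 and 27.8 CPM in Mfn2-/- (25.4 ± 2.44) and 42.1, 39.3 and 38.2 CPM in Mfn1&2-/- (39.9 ± 2.02). Its Mfn2-/- libraries lay below both other mutants and overlapped WT. The difference of Mfn1&2-/- from Mfn2-/- was 0.65 ± 0.17 (adjusted p = 0.0238), lost without Mfn2-/- replicates 1 or 2 or Mfn1&2-/- replicates 1 or 2 (adjusted p up to 0.0816). That of Mfn2-/- from Mfn1-/- was -0.57 ± 0.17 (adjusted p = 0.0365), lost without Mfn1-/- replicates 1, 2 or 3 or Mfn2-/- replicates 1 or 2 (adjusted p up to 0.126) and with the replicate block.

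Of the eIF4E-binding inhibitors 0 of 3 were called in any comparison by edgeR, where 0.228% to 13.3% of all genes were called. Eif4enif1 had the smallest p of the 3 against WT. It stood at 1062, 1077 and 1071 CPM in WT (1070.0 ± 7.71) and 1001, 1041 and 1068 CPM in Mfn1-/- (1037 ± 33.7). It stood at 970.2, 910.3 and 867 CPM in Mfn2-/- (916 ± 52.0) and 1083, 1125 and 1025 CPM in Mfn1&2-/- (1078 ± 50.6). The Mfn2-/- libraries lay below all others, at -0.22 ± 0.08 from WT with an adjusted p of 0.0648 (unadjusted 0.00872). Eif4ebp2 and Eif4ebp3 had 0 to 13.8 CPM in all libraries. Eif4ebp2 differed from WT by 0.85 ± 0.31 (adjusted p = 0.263) in Mfn1-/-, where the groups did not overlap. Eif4ebp3, with no count in WT replicate 3, differed from WT by 1.13 ± 0.81 (adjusted p = 0.411) in Mfn2-/-. Its Mfn1&2-/- level differed by -1.84 ± 0.83 from Mfn2-/- (adjusted p = 0.175) and by -0.79 ± 0.84 from Mfn1-/- (adjusted p = 0.645). The groups did not overlap in these comparisons of Eif4ebp3 either.

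In the eIF4G scaffolds, Eif4g3 fell in Mfn2-/- and Eif4g1 stayed just outside the threshold against WT. Eif4g3 stood at 348, 316 and 324 CPM in WT (329 ± 16.8) and 342, 397 and 292 CPM in Mfn1-/- (344 ± 52.3). It stood at 235, 220.3 and 234 CPM in Mfn2-/- (229.6 ± 8.07) and 301, 289 and 277 CPM in Mfn1&2-/- (289 ± 12.3). Every Mfn2-/- library was lower than every other library, and Mfn1&2-/- lay between Mfn2-/- and WT without overlap. Eif4g3 in Mfn2-/- was 69.7% of WT (-0.52 ± 0.10 (adjusted p = 0.00428)), a call kept without any of the 12 libraries, as was that against Mfn1-/-, -0.58 ± 0.10 (adjusted p = 0.00168). The difference of Mfn1&2-/- from Mfn2-/-, 0.33 ± 0.10 (adjusted p = 0.0484), was lost without any single library except Mfn1-/- replicates 2 and 3 (adjusted p up to 0.146), and with library size alone, limma-voom or the replicate block. Eif4g3 lies on chromosome 4, 137993022 to 138208508, 9.67 Mb from Mfn2, so a change with loss of Mfn2 and one linked to the Mfn2 allele cannot be told apart.

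Eif4g1, which encodes the main eIF4G, stood at 443, 449 and 435 CPM in WT (442 ± 7.06) and 471, 490.3 and 411 CPM in Mfn1-/- (457 ± 41.4). It stood at 347, 394 and 357 CPM in Mfn2-/- (366 ± 25.1) and 392, 383 and 374 CPM in Mfn1&2-/- (383 ± 8.73). The Mfn2-/- libraries lay below WT and Mfn1-/- and overlapped Mfn1&2-/-. The difference from WT was -0.27 ± 0.09 (adjusted p = 0.0511), not a call, and that from Mfn1-/- was -0.32 ± 0.09 (adjusted p = 0.0211), lost without Mfn1-/- replicate 2 or Mfn2-/- replicates 1 or 3 (adjusted p up to 0.0936). Eif4g2, which encodes a relative of eIF4G that lacks the eIF4E site, ran from 535 to 675 CPM over the 12 libraries and was called in no comparison.

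Of 5 genes for eIF4A helicases and their cofactors, Eif4a2 fell in Mfn2-/-. Eif4a2, the less abundant helicase here, stood at 95, 108 and 117 CPM in WT (107 ± 10.8) and 86.3, 101 and 101 CPM in Mfn1-/- (96.0 ± 8.43). It stood at 80.4, 70.7 and 85.2 CPM in Mfn2-/- (78.8 ± 7.37) and 84.5, 108 and 119 CPM in Mfn1&2-/- (104 ± 17.7). Those of Mfn2-/- lay below WT and Mfn1-/- and overlapped Mfn1&2-/-. The change from WT, -0.43 ± 0.14 (adjusted p = 0.0493), was lost without WT replicates 2 or 3, Mfn1-/- replicates 2 or 3, Mfn2-/- replicates 1, 2 or 3 or Mfn1&2-/- replicate 2 (adjusted p up to 0.173), and also with RLE scaling, library size alone or limma-voom. Its exons overlap those of Rfc4 on the other strand by 194 bases.

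Eif4a1 had its highest values in the double mutant. It stood at 481, 480.0 and 515 CPM in WT (492 ± 19.9) and 534, 499 and 513 CPM in Mfn1-/- (515 ± 17.8). It stood at 449, 523 and 485 CPM in Mfn2-/- (486 ± 36.6) and 541, 617 and 654 CPM in Mfn1&2-/- (604 ± 57.8). All Mfn1&2-/- libraries lay above all others. The difference from Mfn2-/- was called (0.31 ± 0.09 (adjusted p = 0.0350)) and lost without Mfn2-/- replicates 1 or 3 or Mfn1&2-/- replicates 2 or 3 (adjusted p up to 0.132), as well as with library size alone, the replicate block or only the groups compared, and that from WT was not called (0.30 ± 0.09 (adjusted p = 0.0743)). Most of its transcript sequence is shared with a pseudogene, so the value of Eif4a1 is uncertain.

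The scanning and start-codon factors held 1 call against WT, Eif1ax, which rose in Mfn2-/- (4.52% of all genes). Eif1ax encodes the X-linked form of eIF1A, which lets the small subunit scan (chromosome X, 159372178 to 159389928, plus strand). It stood at 80.0, 79.2 and 82.3 CPM in WT (80.5 ± 1.63) and 91.3, 81.4 and 79.6 CPM in Mfn1-/- (84.1 ± 6.28). It stood at 125, 118 and 107 CPM in Mfn2-/- (117 ± 9.05) and 94.1, 79.7 and 87.1 CPM in Mfn1&2-/- (87.0 ± 7.22). Every Mfn2-/- library lay above every other library. The level in Mfn2-/- was 145% of WT (0.53 ± 0.11 (adjusted p = 0.00526)) and also exceeded Mfn1-/- by 0.47 ± 0.11 (adjusted p = 0.00923), both kept without any of the 12 libraries. Mfn1&2-/- lay below Mfn2-/-, at -0.42 ± 0.11 (adjusted p = 0.0207), lost without Mfn2-/- replicates 1 or 2 or Mfn1&2-/- replicates 2 or 3 (adjusted p up to 0.0877), and differed from WT by 0.11 ± 0.11 (95% interval -0.12 to 0.34).

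Eif1, which keeps the scanning complex from starting at the wrong codon, stood at 57.5, 81.5 and 76.8 CPM in WT (71.9 ± 12.7) and 68.8, 70.8 and 78.1 CPM in Mfn1-/- (72.6 ± 4.89). It stood at 52.7, 54.9 and 59.5 CPM in Mfn2-/- (55.7 ± 3.46) and 85.2, 85.0 and 75.8 CPM in Mfn1&2-/- (82.0 ± 5.34). Both other mutants lay above Mfn2-/-, which overlapped WT. The difference of Mfn1&2-/- from Mfn2-/-, 0.56 ± 0.13 (adjusted p = 0.0157), was lost without Mfn2-/- replicates 1 or 2 or Mfn1&2-/- replicate 2 (adjusted p up to 0.0579). Eif1ad, a protein with an eIF1A-like domain, stood at 27.9, 26.4 and 28.9 CPM in WT (27.7 ± 1.25) and 29.9, 41.8 and 31.1 CPM in Mfn1-/- (34.3 ± 6.54). It stood at 19.8, 22.3 and 15.3 CPM in Mfn2-/- (19.1 ± 3.58) and 33.2, 20.9 and 31.6 CPM in Mfn1&2-/- (28.6 ± 6.68). Mfn2-/- lay below WT and Mfn1-/- and overlapped Mfn1&2-/-, and its difference from Mfn1-/-, -0.85 ± 0.21 (adjusted p = 0.0138), was lost without Mfn1-/- replicate 2 or Mfn2-/- replicate 3 (adjusted p up to 0.0776). The exons of Eif1ad overlap those of Banf1 by 428 bases on the other strand. Eif1b ran from 139.6 to 177 CPM and was called in no comparison; Eif1a stayed under 7.89 CPM.

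Among eIF2 and the other carriers of the initiator tRNA, 0 of 5 were called against WT in any mutant. Of all genes 0.228% were called in Mfn1-/-, 11.4% in Mfn2-/- and 4.21% in Mfn1&2-/-. Eif2s3x, the X-linked gene of the GTP-binding gamma subunit, was called between mutants. It stood at 74.4, 64.7 and 62.8 CPM in WT (67.3 ± 6.19) and 59.9, 54.7 and 60.8 CPM in Mfn1-/- (58.4 ± 3.30). It stood at 102, 84.4 and 81.2 CPM in Mfn2-/- (89.1 ± 11.1) and 56.2, 69.5 and 67.2 CPM in Mfn1&2-/- (64.3 ± 7.09). Every Mfn2-/- library lay above every other library. Against WT this came to 0.41 ± 0.13 (adjusted p = 0.0530), against Mfn1-/- to 0.61 ± 0.13 (adjusted p = 0.00599), kept without any of the 12 libraries, and Mfn1&2-/- lay below Mfn2-/-, at -0.47 ± 0.13 (adjusted p = 0.0295), lost without Mfn2-/- replicates 1, 2 or 3 or Mfn1&2-/- replicates 1 or 3 (adjusted p up to 0.124) and with the replicate block. The alpha and beta subunit genes, Eif2s1 and Eif2s2, ran from 84.7 to 125 CPM and from 113 to 167 CPM and passed in no comparison. The 3 subunits of eIF2 thus had no common direction in Mfn2-/-, with Eif2s1 at -0.14 ± 0.13 and Eif2s2 at -0.19 ± 0.12.

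eIF2B, which recharges eIF2 with GTP, has 5 subunits, and 1 rose while 1 fell in Mfn2-/- (4.52% and 6.87% of all genes). Eif2b1, the alpha subunit, stood at 125, 152 and 128 CPM in WT (135 ± 14.9) and 156, 127 and 134 CPM in Mfn1-/- (139 ± 15.2). It stood at 183, 177 and 186 CPM in Mfn2-/- (182 ± 4.86) and 145, 154 and 136 CPM in Mfn1&2-/- (145 ± 9.03). Each Mfn2-/- library lay above all others. The change from WT was 0.43 ± 0.11 (adjusted p = 0.0160), lost without WT replicates 1 or 3 or Mfn2-/- replicate 3 (adjusted p up to 0.0647), and that from Mfn1-/- was 0.39 ± 0.11 (adjusted p = 0.0238), lost without Mfn1-/- replicates 2 or 3 or Mfn2-/- replicates 1 or 3 (adjusted p up to 0.104). Eif2b2, the beta subunit, stood at 38.5, 42.8 and 41.5 CPM in WT (40.9 ± 2.23) and 30.5, 39.4 and 40.4 CPM in Mfn1-/- (36.8 ± 5.42). It stood at 30.2, 24.7 and 26.7 CPM in Mfn2-/- (27.2 ± 2.78) and 32.7, 38.7 and 36.6 CPM in Mfn1&2-/- (36.0 ± 3.00). Here the Mfn2-/- libraries lay below all others, at -0.59 ± 0.15 (adjusted p = 0.0221) from WT, lost without WT replicates 2 or 3 or Mfn2-/- replicates 2 or 3 (adjusted p up to 0.0914). Alpha and beta both belong to the regulatory core that binds phosphorylated eIF2, and they moved in opposite directions. Eif2b4, the delta subunit of the same core, stood at 64.7, 66.0 and 57.8 CPM in WT (62.8 ± 4.40) and 60.5, 52.4 and 59.0 CPM in Mfn1-/- (57.3 ± 4.33). It stood at 80.8, 76.7 and 68.8 CPM in Mfn2-/- (75.4 ± 6.08) and 78.0, 71.7 and 65.5 CPM in Mfn1&2-/- (71.7 ± 6.24). Its Mfn2-/- libraries lay above WT and Mfn1-/- and overlapped Mfn1&2-/-, and the difference from Mfn1-/-, 0.40 ± 0.12 (adjusted p = 0.0388), was lost without Mfn1-/- replicates 1, 2 or 3, Mfn2-/- replicates 1, 2 or 3 or Mfn1&2-/- replicate 2 (adjusted p up to 0.142) and with only the groups compared. The catalytic subunit Eif2b5 and its partner Eif2b3 were called in no comparison.

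In eIF3, the large scaffold that holds the small subunit, Eif3g fell and Eif3m rose in Mfn2-/-, while 10 of 12 subunits were not called against WT. Of all genes 11.4% were called in Mfn2-/- against WT. Eif3g, an RNA-binding subunit, had the smallest p of all 46 genes in the comparisons with WT (chromosome 9, 20894349 to 20898623, minus strand). It stood at 115, 141 and 101 CPM in WT (119 ± 20.0) and 126, 124 and 111 CPM in Mfn1-/- (120.2 ± 8.20). It stood at 76.5, 64.7 and 72.0 CPM in Mfn2-/- (71.0 ± 5.96) and 131, 118 and 116 CPM in Mfn1&2-/- (121 ± 8.23). All Mfn2-/- libraries lay below all others, and the other 3 groups overlapped. In Mfn2-/- the level was 59.8% of WT (-0.74 ± 0.12 (adjusted p = 0.00161)). Mfn2-/- also lay below Mfn1-/-, at -0.76 ± 0.12 (adjusted p = 0.00113), and Mfn1&2-/- above Mfn2-/-, by 0.77 ± 0.12 (adjusted p = 0.00150); these 3 calls were kept without any of the 12 libraries. The double mutant differed from WT by 0.03 ± 0.12, with a 95% interval of -0.23 to 0.29.

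Eif3m, a subunit shared with a smaller eIF3 form, stood at 54.2, 42.6 and 40.8 CPM in WT (45.9 ± 7.28) and 37.4, 40.8 and 41.6 CPM in Mfn1-/- (39.9 ± 2.22). It stood at 71.2, 59.4 and 59.7 CPM in Mfn2-/- (63.4 ± 6.72) and 50.3, 46.3 and 42.8 CPM in Mfn1&2-/- (46.5 ± 3.79). In Mfn2-/- all libraries lay above all others. Against Mfn1-/- the difference was 0.67 ± 0.14 (adjusted p = 0.00614), kept without any library. Against WT it was 0.47 ± 0.14 (adjusted p = 0.0444), lost without any single library except WT replicate 1 and Mfn1&2-/- replicates 1 and 3 (adjusted p up to 0.161), and also with the replicate block or only the groups compared.

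Eif3d, a subunit that can itself bind some mRNA caps, stood at 128, 119.9 and 119 CPM in WT (122 ± 4.72) and 93.3, 115 and 111 CPM in Mfn1-/- (107 ± 11.8). It stood at 102, 94.0 and 98.5 CPM in Mfn2-/- (98.1 ± 3.98) and 127, 129 and 134 CPM in Mfn1&2-/- (129.9 ± 3.67). Exons of Eif3d overlap those of Gm17638 on the other strand by 2151 bases, and whether counting used the strand is not stated. The Mfn2-/- libraries of Eif3d lay below WT and Mfn1&2-/- and overlapped Mfn1-/-. Mfn1&2-/- lay above Mfn2-/- by 0.40 ± 0.10 (adjusted p = 0.0190), lost without Mfn2-/- replicates 2 or 3 or Mfn1&2-/- replicates 2 or 3 (adjusted p up to 0.0760), and Mfn2-/- against WT stopped just outside the threshold (-0.32 ± 0.10 (adjusted p = 0.0531)).

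The remaining eIF3 calls were between mutants. Eif3b, a core subunit, stood at 107, 125 and 133 CPM in WT (122 ± 13.1) and 120.3, 137 and 125 CPM in Mfn1-/- (127 ± 8.62). It stood at 95.6, 93.3 and 105 CPM in Mfn2-/- (98.1 ± 6.39) and 124, 100.3 and 97.3 CPM in Mfn1&2-/- (107 ± 14.5). Mfn2-/- lay below WT and Mfn1-/- and overlapped Mfn1&2-/-; its difference from Mfn1-/-, -0.38 ± 0.12 (adjusted p = 0.0459), was lost without WT replicate 2, Mfn1-/- replicates 2 or 3, Mfn2-/- replicates 1, 2 or 3 or Mfn1&2-/- replicate 2 (adjusted p up to 0.159), and with the replicate block. Eif3e, a subunit of the outer part of the complex, stood at 66.4, 74.0 and 90.4 CPM in WT (76.9 ± 12.2) and 70.8, 73.0 and 76.6 CPM in Mfn1-/- (73.5 ± 2.91). It stood at 115, 95.9 and 89.8 CPM in Mfn2-/- (100.2 ± 13.1) and 91.2, 86.1 and 93.1 CPM in Mfn1&2-/- (90.1 ± 3.60). Mfn2-/- lay above Mfn1-/- and overlapped the rest, and that difference, 0.45 ± 0.13 (adjusted p = 0.0303), was lost without Mfn1-/- replicates 1, 2 or 3 or Mfn2-/- replicates 1 or 2 (adjusted p up to 0.142). Eif3i, a core partner of Eif3b and Eif3g, stood at 33.2, 39.8 and 30.1 CPM in WT (34.4 ± 4.94) and 31.1, 32.5 and 30.6 CPM in Mfn1-/- (31.4 ± 0.983). It stood at 36.0, 27.0 and 28.8 CPM in Mfn2-/- (30.6 ± 4.73) and 39.0, 46.7 and 45.6 CPM in Mfn1&2-/- (43.8 ± 4.20). The double mutant lay above both single mutants and overlapped WT. Its difference from Mfn2-/-, 0.52 ± 0.16 (adjusted p = 0.0482), was lost without 8 of the 12 libraries and with RLE scaling, library size alone, the replicate block or only the groups compared (adjusted p up to 0.174 without 1 library: WT replicate 1, any Mfn1-/- replicate, Mfn2-/- replicates 2 or 3, or Mfn1&2-/- replicates 2 or 3). The other 6 subunits, Eif3a, Eif3c, Eif3f, Eif3h, Eif3k and Eif3l, were called in no comparison.

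**Figure D3:**
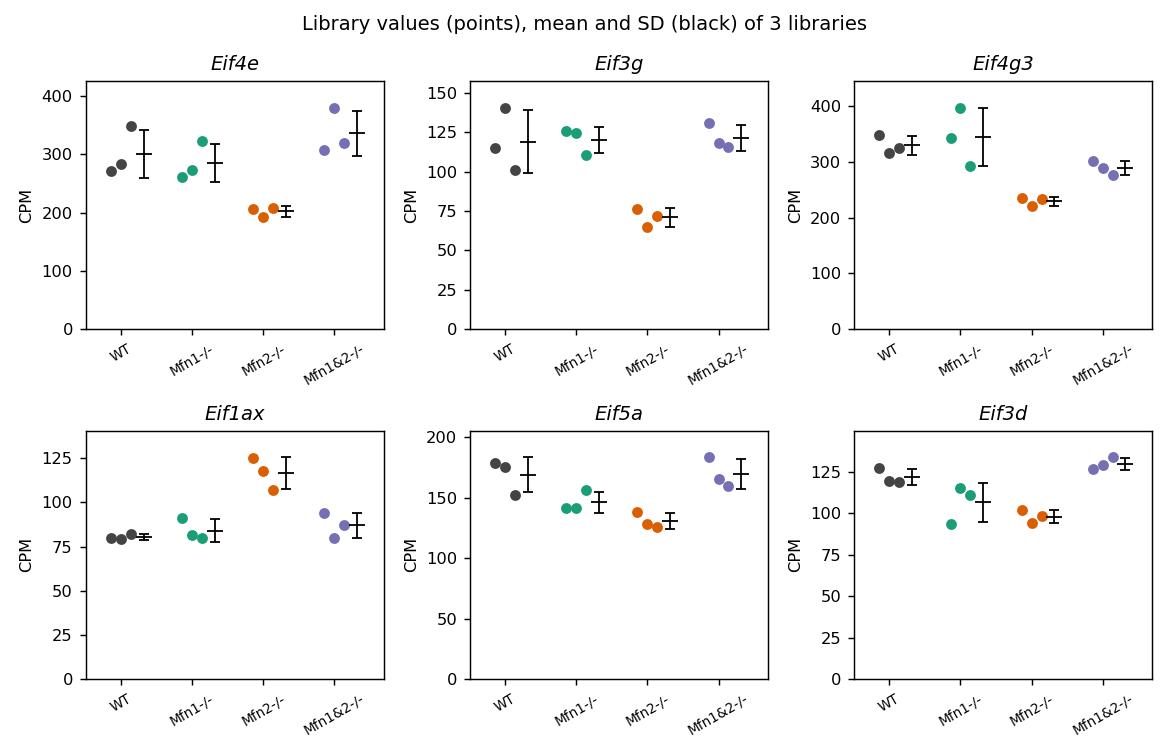
CPM of Eif4e, Eif3g, Eif4g3, Eif1ax, Eif5a and Eif3d in each library (points), with the mean and SD of the 3 libraries of a group (black). The Mfn2-/- points lie apart from all others in each panel but that of Eif3d, where they overlap Mfn1-/-.

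Among the factors of subunit joining, Eif5b fell in Mfn2-/-. Eif5b, the GTPase that joins the subunits, stood at 284, 284 and 352 CPM in WT (307 ± 39.5) and 237, 342 and 266 CPM in Mfn1-/- (282 ± 54.6). It stood at 231, 222 and 237 CPM in Mfn2-/- (229.9 ± 7.78) and 268, 257 and 229 CPM in Mfn1&2-/- (251 ± 20.2). Mfn2-/- lay below WT and overlapped both other mutants. The change, -0.41 ± 0.13 (adjusted p = 0.0445), was lost without WT replicates 2 or 3, Mfn1-/- replicate 3, Mfn2-/- replicates 1, 2 or 3 or Mfn1&2-/- replicate 2 (adjusted p up to 0.191), and with the replicate block. Exons of Eif5b overlap those of Rev1, a DNA polymerase, on the other strand by 1643 bases, and Rev1 also fell, from 125 ± 9.25 to 82.6 ± 12 CPM (-0.60 ± 0.12 (adjusted p = 0.00448)). Whether counting used the strand is not stated in any source used, and so the changes of Eif5b and Rev1 cannot be told apart.

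Eif6, which keeps the ribosomal subunits apart until they are ready, stood at 131, 107 and 89.2 CPM in WT (109 ± 21.0) and 87.5, 86.4 and 93.3 CPM in Mfn1-/- (89.0 ± 3.7). It stood at 134, 102 and 132 CPM in Mfn2-/- (123 ± 17.8) and 122, 119 and 127 CPM in Mfn1&2-/- (122 ± 4.15). Both Mfn2-/- and Mfn1&2-/- lay above Mfn1-/- and overlapped WT. The call of Mfn2-/- against Mfn1-/-, 0.46 ± 0.14 (adjusted p = 0.0336), was lost without Mfn1-/- replicates 1, 2 or 3 or Mfn2-/- replicates 1 or 3 (adjusted p up to 0.152). Eif5, which triggers GTP hydrolysis by eIF2, ran from 252 to 357 CPM and was called in no comparison.

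Eif5a encodes a factor now known to act mostly in elongation and termination, and it fell in Mfn2-/- (chromosome 11, 69916714 to 69921958, minus strand). It stood at 179, 176 and 152 CPM in WT (169 ± 14.6) and 141, 141 and 156 CPM in Mfn1-/- (146 ± 8.65). It stood at 138, 128 and 126 CPM in Mfn2-/- (131 ± 6.77) and 183, 166 and 159.6 CPM in Mfn1&2-/- (169.5 ± 12.3). The Mfn2-/- libraries lay below all others, with Mfn1-/- next. The change from WT, -0.37 ± 0.10 (adjusted p = 0.0235), was lost without WT replicates 1 or 2 or Mfn2-/- replicates 2 or 3 (adjusted p up to 0.0871). The difference of the double mutant from Mfn2-/-, 0.37 ± 0.10 (adjusted p = 0.0234), was lost without Mfn2-/- replicates 2 or 3 or Mfn1&2-/- replicates 1 or 2 (adjusted p up to 0.0932), and that from WT was 0.01 ± 0.10 (95% interval -0.20 to 0.21).

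The design allows a direct test of whether losing mitofusin 1 acts differently in oocytes with and without mitofusin 2, the interaction of both losses. It passed for 4 of 46 genes, all with the more positive change in oocytes that lacked mitofusin 2, where 4.13% of all genes were called, 2.92% in this direction. At an unadjusted p under 0.05 there were 15 (21.1% of all genes). The member median was 0.13, beside -0.01 for all genes. With library size alone as the scaling 2 were higher and 1 lower (3.93% of all genes called). That scaling shifted the median of all genes by -0.11, and relative to it the member median was 0.14 under both scalings. For Eif4e, loss of mitofusin 1 gave -0.08 ± 0.11 with mitofusin 2 and 0.73 ± 0.12 without it, an interaction of 0.81 ± 0.16 (adjusted p = 0.0161). For Eif3g the 2 changes were 0.02 ± 0.12 and 0.77 ± 0.12, an interaction of 0.76 ± 0.17 (adjusted p = 0.0285). Eif5a (-0.21 ± 0.10 and 0.37 ± 0.10) gave 0.58 ± 0.14 (adjusted p = 0.0318), and Eif3d (-0.20 ± 0.10 and 0.40 ± 0.10) gave 0.60 ± 0.14 (adjusted p = 0.0320). In each of these genes the double mutant stood nearer to WT than Mfn2-/- did. The interaction of Eif4e was kept without any library. That of Eif3g was lost without WT replicate 2, Mfn1-/- replicates 1 or 3, Mfn2-/- replicates 2 or 3 or Mfn1&2-/- replicates 1 or 2 (adjusted p up to 0.0772). Those of Eif3d and Eif5a were each lost without 8 of the 12 libraries (adjusted p up to 0.0864 and 0.0880), in both cases WT replicates 1 or 2, Mfn1-/- replicate 1, Mfn2-/- replicates 2 or 3, or Mfn1&2-/- replicate 2, for Eif3d also WT replicate 3 or Mfn1&2-/- replicate 3, and for Eif5a also Mfn1-/- replicate 2 or Mfn1&2-/- replicate 1; both were also lost with library size alone or the replicate block.

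**Figure D4:**
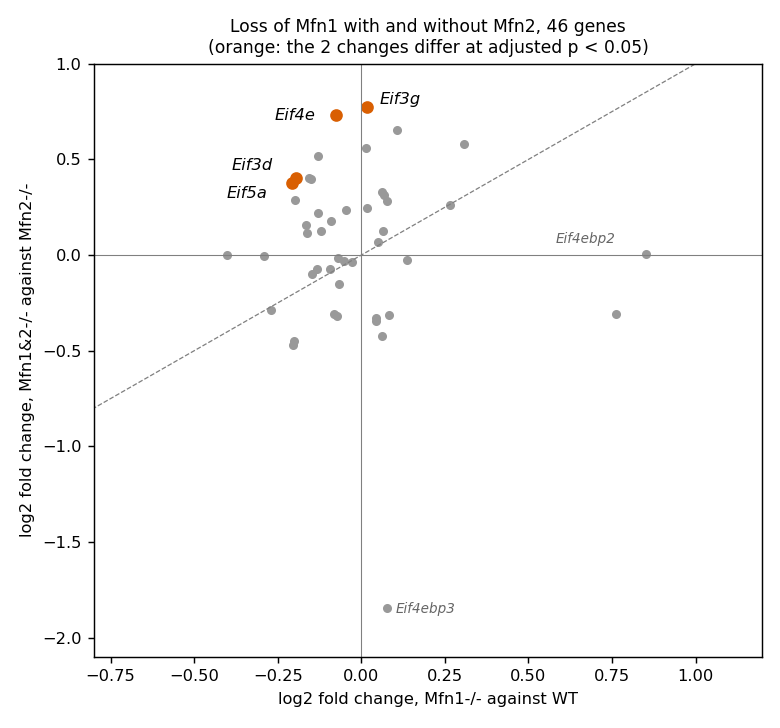
Log2 fold change with loss of Mfn1 where Mfn2 is present (Mfn1-/- against WT, horizontal) and where it is absent (Mfn1&2-/- against Mfn2-/-, vertical) for the 46 genes; the dashed line marks equal change. The 4 orange genes, Eif4e, Eif3g, Eif5a and Eif3d, passed the interaction test and lie above the line, at 0.73, 0.77, 0.37 and 0.40 on the vertical axis.

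Of 14 tested genes in the eIF2 kinase list, the same 1 was called against WT in Mfn2-/- and Mfn1&2-/- (11.4% and 4.21% of all genes). This was Eif2ak3, which encodes PERK, the kinase of the endoplasmic reticulum that phosphorylates the alpha subunit of eIF2 and so slows initiation. It stood at 33.6, 35.9 and 36.2 CPM in WT (35.2 ± 1.40) and 49.5, 46.1 and 40.8 CPM in Mfn1-/- (45.5 ± 4.37). It stood at 114, 71.8 and 89.0 CPM in Mfn2-/- (91.7 ± 21.3) and 148, 119 and 175 CPM in Mfn1&2-/- (147 ± 28.0). The 4 groups did not overlap, in the order WT, Mfn1-/-, Mfn2-/- and Mfn1&2-/-. The change from WT was 1.38 ± 0.17 (adjusted p = 0.000132) in Mfn2-/- and 2.06 ± 0.17 (adjusted p = 2.405e-06) in Mfn1&2-/-, both kept without any library. In Mfn1-/- it was 0.37 ± 0.17 (adjusted p = 0.377), not a call. The double mutant exceeded Mfn2-/- by 0.68 ± 0.16 (adjusted p = 0.0157), lost without Mfn2-/- replicates 2 or 3 or Mfn1&2-/- replicate 3, and the interaction was 0.32 ± 0.23 (adjusted p = 0.476). Eif2ak3 lies on chromosome 6, 70844515 to 70905245, plus strand.

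The kinases HRI, PKR and GCN2, encoded by Eif2ak1, Eif2ak2 and Eif2ak4, were not called in any comparison of 2 groups. In the interaction test 1 of the 14 genes of the list was called, with a positive interaction, where 4.13% of all genes were called. It was a gene other than Eif2ak3, and interactions in the list ran from -0.76 to 2.67. Eif2ak2 was low, at 0.831, 0.313, 0.428 and 1.02 CPM per kb in WT, Mfn1-/-, Mfn2-/- and Mfn1&2-/-. Eif2ak1 was at 359.7 ± 21.4 CPM in WT and 301 ± 32.9 in Mfn2-/-, and Eif2ak4 at 195 ± 9.95 and 164 ± 21.4 CPM. Atf4, whose mRNA is translated when eIF2 is phosphorylated, stood at 175 ± 25.7 CPM in WT, 158 ± 18.7 in Mfn1-/-, 207 ± 11.7 in Mfn2-/- and 169 ± 16.2 in Mfn1&2-/-, with no call against WT (0.24 ± 0.12 (adjusted p = 0.213) in Mfn2-/-); against Mfn1-/- it was higher in Mfn2-/- by 0.38 ± 0.12 (adjusted p = 0.0440), lost with library size alone and without WT replicate 1, Mfn1-/- replicates 2 or 3, any Mfn2-/- replicate or Mfn1&2-/- replicate 2. Ddit3, which encodes CHOP, ran from 8.59 to 17.1 CPM and was not called. RNA levels say nothing of the phosphorylation of eIF2 or of the activity of PERK, neither of which was measured.

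**Figure D5:**
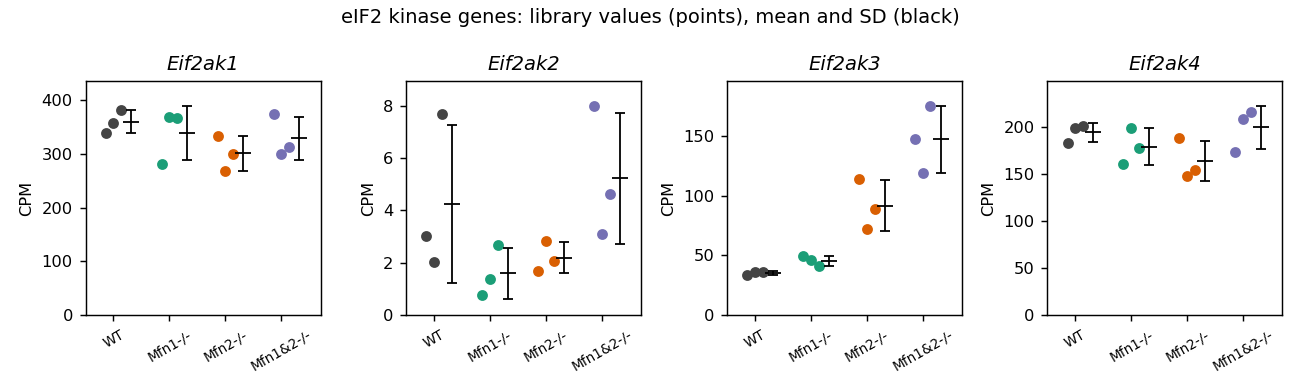
CPM of the 4 eIF2 kinase genes in each library (points), with the mean and SD of each group (black). Eif2ak3 rises from about 35.2 CPM in WT to 147 CPM in Mfn1&2-/- without overlap between groups, while the groups of the other 3 genes overlap in most comparisons.

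Of 16 genes that control eIF4F through mTORC1 and MNK, 2 rose and 2 fell in Mfn2-/- (4.52% and 6.87% of all genes). Ddit4 (REDD1), which restrains mTORC1, rose from 33.5 ± 6.84 to 74.0 ± 5.13 CPM (1.14 ± 0.16 (adjusted p = 0.000391)) and stood at 54.2 ± 7.74 CPM in Mfn1&2-/- (0.69 ± 0.16 (adjusted p = 0.0201) against WT, lost without WT replicate 3 or Mfn1&2-/- replicates 2 or 3 and with only the groups compared). Tsc2, which switches off the mTORC1 activator Rheb, rose by 0.60 ± 0.16 (adjusted p = 0.0234), lost without WT replicates 1 or 3 or Mfn2-/- replicates 2 or 3. Rps6, a ribosomal protein and mTORC1 pathway target, fell by 0.79 ± 0.16 (adjusted p = 0.00629), and Pdcd4, an inhibitor of eIF4A, fell by 0.41 ± 0.10 (adjusted p = 0.0125), lost without Mfn2-/- replicate 3.

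In the elongation and termination list 3 of 16 rose and 1 fell in Mfn2-/- (4.52% and 6.87% of all genes). The release factor gene Etf1 rose from 123 ± 4.73 to 173 ± 9.19 CPM (0.49 ± 0.09 (adjusted p = 0.00328)) and Eef1a1, which delivers aminoacyl-tRNA, by 0.28 ± 0.08 (adjusted p = 0.0280). Hbs1l, of ribosome rescue, rose by 0.50 ± 0.15 (adjusted p = 0.0394), and Eef1b2, an exchange factor for eEF1A, fell (-0.51 ± 0.14 (adjusted p = 0.0290)). Calls were lost for Eef1a1 without WT replicates 1 or 2 or any Mfn2-/- replicate, for Eef1b2 without WT replicate 3 or Mfn2-/- replicates 1 or 2, and for Hbs1l without WT replicates 2 or 3, Mfn2-/- replicates 2 or 3 or Mfn1&2-/- replicate 2. That of Hbs1l was also lost with the replicate block or only the groups compared. In Mfn1&2-/- edgeR called 0 of these 16 against WT (4.21% of all genes), with 4 at an unadjusted p under 0.05 (18.6% of all genes).

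Among other initiation and reinitiation proteins 1 of 16 rose (Hbs1l, listed here too) and 2 fell in Mfn2-/- (4.52% and 6.87% of all genes). Abcf1, an ATPase that binds eIF2, fell from 108 ± 5.97 to 81.9 ± 4.81 CPM (-0.40 ± 0.10 (adjusted p = 0.0195)), and Bzw2, an eIF5 mimic, from 3.97 ± 2.14 to 0.589 ± 0.513 CPM (-2.75 ± 0.80 (adjusted p = 0.0369)), with no count in 1 Mfn2-/- library. Bzw1, the other eIF5 mimic, was called lower in Mfn1&2-/- (-0.71 ± 0.17 (adjusted p = 0.0241)). Abcf1 was lost without WT replicates 1 or 3 or Mfn2-/- replicates 1 or 2, Bzw2 without WT replicates 2 or 3 or any Mfn2-/- replicate, and Bzw1 without WT replicate 3 or Mfn1&2-/- replicates 1 or 2. Both Bzw2 and Bzw1 were also lost with only the groups compared.

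The poly(A) and masking partners are proteins that package stored mRNA or act on its tail. Of these 20 genes 1 rose and 3 fell in Mfn2-/- (4.52% and 6.87% of all genes). Ybx1, an mRNA-packaging protein, fell from 212 ± 30.3 to 114 ± 11.4 CPM (-0.89 ± 0.13 (adjusted p = 0.000427)), and Zar1l from 311 ± 32.3 to 136 ± 8.13 CPM (-1.19 ± 0.18 (adjusted p = 0.000653)). Pabpc4, a poly(A)-binding protein, fell by 0.42 ± 0.10 (adjusted p = 0.0121), lost without WT replicate 3, and Cpeb1, which directs polyadenylation in maturation, rose by 0.30 ± 0.08 (adjusted p = 0.0265), lost without WT replicates 1 or 2 or Mfn2-/- replicates 1 or 3 and with the replicate block. The germ-cell packaging protein gene Ybx2 was at 381 ± 58.1 CPM in WT and 351 ± 9.61 in Mfn2-/- and was not called. Of 10 mitochondrial translation factors edgeR called 0 against WT in Mfn2-/- (11.4% of all genes). At an unadjusted p under 0.05 there were 2 of the 10, where 2965 of all 11385 genes passed.

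The deposited symbols do not tell how reads were assigned that fit more than 1 gene. Of the members, 14 share more than 10% of the 50-base stretches of their coding transcripts with other annotated genes and 20 share under 1%. The share was 65.5% for Eif4ebp3, 65.3% for Eif4a1, mostly with Eif4a-ps4, 40.0% for Eif3m, mostly with Gm7658, 36.2% for Eif2s3x, mostly with Gm2223, and 31.6% for Eif1. It was 27.8% for Eif2s2, 26.2% for Eif3h, 24.4% for Eif4a3, 22.0% for Eif3e and 18.4% for Eif3d, in Eif3d all with Gm17638. For Eif5b it was 18.2%, all with Rev1, and for Eif1ad 15.1%, all with Banf1, and it was 12.7% for Eif4a2 and 12.4% for Eif4e3. The values of these 14 genes are uncertain to that extent. The share was 7.16% for Eif4e, 7.13% for Eif5a, 5.39% for Eif4e1b, and 0% for Eif3g, Eif4g3, Eif1ax, Eif2b1 and Eif2b2.

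Transcription start regions were searched for what the members might share. RefSeq windows (GRCm38.p6) of 250 bases before to 50 after the annotated start were at hand for 36 of 46 members, 48 windows in all, since some genes have several annotated starts (32851 windows for 27025 genes). A gene was counted where any of its windows held the letters. Many mRNAs of the translation machinery begin with C and a run of pyrimidines, the TOP motif read through mTORC1. A C at the annotated start base followed by C or T, with a run of 5 or more, was found in 2 of 36 members (5.56%; 3.01% of 27025 genes). With the run allowed to begin within 5 bases of that start, it was found in 9 members. Of all windows 18.3% held such a run, a share of windows and not of genes. The 2 members with the run at the start base itself are shown, with the run of 11 in capitals and 20 bases on the upstream side.
Eif2s3x, chrX:94212632-94212671, minus strand: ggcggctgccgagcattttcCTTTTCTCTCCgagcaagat
Eif3f, chr7:108934395-108934434, plus strand: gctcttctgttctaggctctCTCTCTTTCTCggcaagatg

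The palindromic motif of the factor NRF-1 (with any base allowed in 1 of the 2 middle positions) was searched on both strands and found in 7 of 36 members (19.4%; 5.19% of all genes with a window), namely Eif1, Eif2s1, Eif2s2, Eif3a, Eif3k, Eif4e and Eif5a. The ETS motif CCGGAAGT, also on both strands, was in 6 of 36 (16.7%; 4.31%), Eif2b2, Eif2b4, Eif3d, Eif3l, Eif4e2 and Eif5a. The CRE motif TGACGTCA was in 0 of 36 (2.03% of all genes) and the ATF4 motif TTGCATCA in 0 of 36 (1.03%). These shares, like that of the start base, are over all 27025 genes with a window, many of them absent from the count table. Shares among the 11385 genes of that table were not computed. No excess is therefore shown to be particular to initiation factors. The windows of Eif4e and Eif5a are shown around their match, in capitals, because these 2 genes were called in Mfn2-/- and in the interaction; the match was in 1 of 2 windows of Eif4e and 4 of 6 of Eif5a, and in neither gene in the window of the most upstream start. Counted to the downstream start whose window is shown, the match begins 100 bases before it in Eif4e and 129 bases before it in Eif5a.
Eif4e, chr3:138527153-138527192, plus strand: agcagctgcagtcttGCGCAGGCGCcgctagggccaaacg
Eif5a, chr11:69921491-69921530, minus strand: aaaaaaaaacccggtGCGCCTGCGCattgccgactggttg
These are matches of letters and not measured binding sites.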

How the data were processed

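Total RNA from 12 pools of 50 oocytes (4 groups, 3 pools each) was sequenced after removal of ribosomal RNA with a strand-keeping low-input kit, per the labels' protocols. Per the submitters' processing notes, the mm10 genome, STAR 2.7.0a, edgeR and FastQC 0.11.7 were used, with no roles or order given. The table used was deposited as raw counts. Before depositing it the authors kept genes that passed 1 CPM in 3 or more libraries. Not given in the sources used here: the annotation, strand use, and how reads matching more than 1 gene were handled.

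Groups came from the labels. The label of Mfn2-/- replicate 1 spells its genotype "Mn2-/-", and it was placed by its description. With TMM scaling, the quasi-likelihood model of edgeR 4.0.16 (R 4.3.3) was run on all 12 libraries, with 1 mean per group and 8 residual degrees of freedom. All 11385 genes passed filterByExpr. Adjustment was Benjamini-Hochberg over all genes of a comparison. Standard errors are the log2 fold change over the square root of F. The fit was tested on simulated data.

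Library values are given for each member called in any comparison, for Eif4e1b and Eif4e and for the member of each role with the smallest p against WT, and up to 4 called genes of each pathway list are named. Members, roles and lists were chosen with earlier results of these data known. Alternatives were the Wald test of DESeq2 1.42.0, limma-voom (limma 3.58.1), RLE scaling, library size only, a minimum of 5 CPM in 3 libraries, no filter, the replicate block, only the groups compared, and each library left out. Replicates had correlations of 0.968 to 0.985 across genes and differed by more than sampling noise. Sequences and promoter windows are from RefSeq (GRCm38.p6), and gene positions and exon lengths from GENCODE vM21. The 95% intervals come from the edgeR standard errors and include the spread between pools, and the floor of 3 counts covers counting error only. No count over single exons was made.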

Additional observations from a re-analysis of the deposited data

Results flagged for a closer look

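For 4 initiation factor genes the change with loss of Mfn1 differed by the edgeR interaction test between oocytes without and with Mfn2, by 0.81 on the log2 scale for Eif4e, 0.76 for Eif3g, 0.60 for Eif3d and 0.58 for Eif5a. In the same test Ybx1 differed by 1.16 (adjusted p = 0.00285), from -0.07 ± 0.12 with Mfn2 to 1.09 ± 0.13 without it, and this was kept under each of the 19 alternatives. Zar1l differed by 0.97 (adjusted p = 0.0400), with libraries at 375, 199.7 and 219.5 CPM in Mfn1&2-/- (265 ± 95.9), and lost the call under 10 of 19 alternatives: library size alone, the replicate block, and without WT replicates 2 or 3 or any 1 library of Mfn1-/- or Mfn2-/-. Pdcd4 differed by 0.52 (adjusted p = 0.0459) and lost it under 14 of 19, among them each of the 12 libraries left out. Hbs1l differed in the other direction, by -1.01 (adjusted p = 0.0170), from 0.18 ± 0.15 to -0.83 ± 0.15, and was kept under all 19. Etf1 differed by -0.54 (adjusted p = 0.0318) and lost the call under 10 of 19: the replicate block, and without WT replicates 2 or 3, Mfn1-/- replicates 2 or 3, any Mfn2-/- replicate, or Mfn1&2-/- replicates 1 or 2. Not every called gene of the pathway lists is given here. The eIF2 kinase list also held 1 higher interaction call among 14 tested genes. The elongation and termination list held 1 higher call beside 2 lower among 16 (2.92% of all genes were called higher).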

How the results depend on the processing

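Counts of called initiation factor genes depended on the tool and on single libraries. DESeq2 gave 17 for Mfn2-/- against WT (edgeR 11), 1 for Mfn1&2-/- against WT and 2 for Mfn1&2-/- against Mfn1-/- (edgeR 0 in both), and it called more of all genes too, 14.9%, 7.33% and 9.18% (edgeR 11.4%, 4.21% and 5.36%). For Mfn1&2-/- against Mfn1-/-, library size only gave 1 (5.81% of all genes) and only the groups compared gave 1 (4.52%). The labels do not say that replicate numbers pair the samples. Deviations of same-numbered libraries correlated at -0.167 to 0.196, with 4 of 18 over 0.1 (5 of 36 for different numbers). The deviations were taken from means of 3 libraries and so depend on each other. They cannot decide whether a number marks a shared batch. With the replicate block the counts were 7 for Mfn1&2-/- against Mfn2-/- (8.48% of all genes), 2 for the interaction (2.42%), 9 for Mfn2-/- against WT (9.5%), 13 for Mfn2-/- against Mfn1-/- (11.7%) and 0 for the rest.

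Leaving out 1 library gave 0 to 0 for Mfn1-/- against WT, 5 to 13 for Mfn2-/- against WT, 0 to 1 for Mfn1&2-/- against WT (1 without Mfn1&2-/- replicate 1), 0 to 1 for Mfn1&2-/- against Mfn1-/-, 3 to 12 for Mfn1&2-/- against Mfn2-/-, 6 to 16 for Mfn2-/- against Mfn1-/- and 1 to 4 for the interaction. For Mfn2-/- against WT it was 5 without WT replicate 2, Mfn2-/- replicate 2 or Mfn2-/- replicate 3, and 6 without WT replicate 3, where 6 of the 11 calls were lost; of all genes 8.02%, 6.22%, 6.67% and 6.41% were called in these fits, against 11.4%. For Mfn1&2-/- against Mfn2-/- it was 6, 3 and 5 without Mfn2-/- replicates 1, 2 and 3, and 4 and 5 without Mfn1&2-/- replicates 2 and 3, where 5.01% to 6.97% of all genes were called, against 10.2%. For Mfn2-/- against Mfn1-/- it was 6 and 8 without Mfn1-/- replicates 2 and 3, and 7 and 8 without Mfn2-/- replicates 1 and 3, where 7.67% to 9.45% of all genes were called, against 13.3%. For the interaction it was 1 without WT replicate 2, Mfn1-/- replicate 1, Mfn2-/- replicates 2 or 3, or Mfn1&2-/- replicate 2, where 1.41% to 2.2% of all genes were called, against 4.13%. Causes of these shifts were not tested, beyond the smaller number of libraries.

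Of 816 recomputed values of called genes, 642 kept their direction and call, 174 kept the direction and lost the call, and 0 reversed. Scaling by library size only moved the median of all genes by 0.108 for the interaction and by at most 0.0627 in the other comparisons. Depth limits Eif4ebp3, Eif1a and Bzw2, at a few CPM. With 3 libraries a group, a gene that was not called is not shown to be equal between groups.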
